A study of Mus musculus with 8 samples.

Results

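The 40 genes described here code for nuclear receptors, and they were picked by name as relatives of Ppara, not by any measured value. They were found among the 45706 Ensembl identifiers of the count table through the GENCODE annotation of GRCm38. Of the 40 genes, 39 had at least 1 count in some liver, and 33 had enough counts to be among the 15491 genes tested. The list does not hold every nuclear receptor, and receptors outside it were not analysed here. RNA was measured by poly(A) RNA sequencing in the livers of 8 male mice of the strain labelled C56B6/J. An adeno-associated virus (AAV2/8), in which the chicken β-actin (CBA) promoter drives a mirE/shRNA, was injected at 6 weeks of age. The 4 livers labelled Srsf10-kd (genotype label Srsf10KD) received a hairpin against Srsf10, a gene for an RNA-binding protein of the SR family, and the 4 livers labelled Ctrl (genotype label WT) received a control hairpin. Both groups were fed a high fat diet (HFD), with 60% of calories from fat, which began 4 weeks after injection and lasted 12 weeks, so no liver on a control diet enters these comparisons. Each library was taken as the whole liver of 1 mouse. In such bulk tissue, fewer cells of a type and less RNA per cell cannot be told apart.

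Nuclear receptors are transcription factors, many of which are switched by small lipid-soluble ligands such as fatty acids, bile acids, oxysterols, retinoids, thyroid hormone and steroids. Many bind DNA as a pair with a retinoid X receptor (RXR), at repeats of a short hexamer, and turn their target genes up or down according to ligand and cofactors. In hepatocytes, PPARα (Ppara) senses fatty acids and drives their oxidation and ketone body production, the LXRs (Nr1h2, Nr1h3) sense oxysterols, and PXR (Nr1i2) and CAR (Nr1i3) govern drug and bile acid clearance.

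The sequences that bear on these genes come first. Ppara lies at chr15:85734983-85802819 on the plus strand of GRCm38. Its longest coding transcript has 8 exons, and intron 2, at 40642 bp, is the largest. The 2 primers that the study designed for exons 2 and 3 of Ppara are shown because they stand on either side of that intron. The counts analysed here cover all exons of the gene and were not made with these primers. Each was matched to 5 annotated Ppara transcripts.
Ppara exon 2 forward primer, chr15:85736854-85736873: cgggaacaagacgttgtcat
Ppara exon 3 reverse primer, chr15:85777670-85777689, minus strand: cctcaccgatggactgagaa

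Promoters are shown for Ppara, which fell, and for Thrb, Nr2c2 and Nr4a1, which DESeq2 called as well. RefSeq windows (GRCm38.p6, 250 bases before to 50 bases after each start) matched 37 of the 40 genes, with 57 windows in all, and no window was matched for Thra, Hnf4g and Nr5a1. The 250 bases before the start are printed on the gene's own strand. Capitals mark the hexamer AGGTCA, which many receptors of this family bind, and TGACG, a core of the cyclic AMP response element, searched on both strands (TGACG on the other strand reads CGTCA).
Ppara, chr15:85735526-85735775, plus strand: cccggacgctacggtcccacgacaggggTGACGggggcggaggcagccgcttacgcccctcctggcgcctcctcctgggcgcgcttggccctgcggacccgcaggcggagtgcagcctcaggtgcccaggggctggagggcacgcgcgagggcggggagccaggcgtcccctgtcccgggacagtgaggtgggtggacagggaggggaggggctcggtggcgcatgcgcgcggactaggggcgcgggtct
Thrb, chr14:17660710-17660959, plus strand: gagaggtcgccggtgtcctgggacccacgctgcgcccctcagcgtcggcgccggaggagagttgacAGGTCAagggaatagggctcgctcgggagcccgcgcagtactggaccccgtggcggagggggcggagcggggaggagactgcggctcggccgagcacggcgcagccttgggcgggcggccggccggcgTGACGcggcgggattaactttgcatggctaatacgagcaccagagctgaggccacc
Nr2c2, chr6:92092183-92092432, plus strand: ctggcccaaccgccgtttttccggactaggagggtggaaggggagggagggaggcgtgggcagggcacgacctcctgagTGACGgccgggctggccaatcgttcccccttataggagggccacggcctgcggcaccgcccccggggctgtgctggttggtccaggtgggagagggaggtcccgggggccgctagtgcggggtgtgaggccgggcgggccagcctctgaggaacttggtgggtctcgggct
Nr4a1, chr15:101266596-101266845, plus strand: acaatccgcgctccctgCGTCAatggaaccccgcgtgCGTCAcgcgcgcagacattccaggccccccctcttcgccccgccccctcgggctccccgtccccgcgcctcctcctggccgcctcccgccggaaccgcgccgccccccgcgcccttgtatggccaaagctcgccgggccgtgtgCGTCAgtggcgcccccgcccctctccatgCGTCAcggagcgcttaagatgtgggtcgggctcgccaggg

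The Ppara window held 1 TGACG, starting 222 bases before the start, and no AGGTCA. The Thrb window, the first of 2 for that gene, held 1 AGGTCA at 184 bases and 1 TGACG at 56 bases before the start. The Nr2c2 window held 1 TGACG, at 171 bases before the start. The Nr4a1 window held 4 matches to TGACG on the other strand, at 233, 213, 69 and 40 bases before the start. Over whole windows, AGGTCA was in 10 of the 57 windows of the 37 genes (17.5%) and in 16.3% of all 32851 RefSeq windows, and TGACG was in 16 of 57 (28.1%) and in 20.8% of all. The direct repeat AGGTCANAGGTCA, in which N is any base and which contains that hexamer, was in 0 of 57 and in 13 of 32851 (0.0396%). The median GC content was 59.3% in the 57 windows and 52.7% in all. These are matches of letters and not measured binding sites.

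Srsf10 itself did not differ in the direction of its label. Its CPM (counts scaled to library size, with TMM factors) were 31.6, 33.7, 35.3 and 30.9 in Ctrl 1 to 4 and 34.3, 34.0, 41.0 and 36.5 in Srsf10-kd 1 to 4, a log2 fold change of 0.15 (SE 0.10, edgeR adjusted p = 0.378), with 7.95% of the 75-base stretches of its exons shared with other genes. The groups are therefore named by their labels throughout, and every direction below rests on the labels. Libraries held 50456404 to 59697241 counts. Hepatocyte markers (7 genes) summed to 84845 to 109529 CPM in Ctrl and 99483 to 117998 CPM in Srsf10-kd livers, most of it Alb. Apob, also in that list, did not overlap, at 7254 to 9353 CPM in Ctrl and 2659 to 5231 CPM in Srsf10-kd livers (log2 fold change -0.93, SE 0.22, adjusted p = 0.115 in edgeR, 0.00272 in DESeq2 and 0.00953 in limma-voom). In all, 0 of the 40 markers of 6 cell types were at 0. Srsf10-kd 3 stood apart on the first principal component (67.4, against 1.92 to 11.5 in the other Srsf10-kd livers). Ctrl 3 was the Ctrl liver nearest to the Srsf10-kd livers, at -2.91 against -20.2 to -41.8 in the other Ctrl livers. Values without these livers are given where they change a call.

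Ppara was the one receptor gene of the 33 tested that passed the main test, and it fell. It stood at 177, 208, 168 and 234 CPM in Ctrl 1 to 4 and at 88.4, 84.6, 77.8 and 82.3 CPM in Srsf10-kd 1 to 4. All 4 Srsf10-kd livers were below all 4 Ctrl livers, and they were close to each other, with an SD of 4.45 CPM against 30.3 CPM in Ctrl. The group mean fell by 57.6%, and the log2 fold change was -1.24 (SE 0.13, edgeR quasi-likelihood test, Benjamini-Hochberg adjusted p = 0.0166). The exact two-sided permutation test gave p = 0.0286, the smallest that 4 against 4 livers allow. Ppara had the smallest p of all 15491 genes in edgeR. Among them, 104 genes, Ppara included, had a log2 fold change as low or lower, of which 26 had a mean of at least 10 CPM in Ctrl.

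The fall of Ppara was of like size in every other fit, while its adjusted p moved. With 1 liver left out, the log2 fold change ran from -1.31 to -1.15. The edgeR adjusted p rose above 0.05 without Ctrl 2 (0.106), Srsf10-kd 1 (0.0823), Srsf10-kd 2 (0.0536) and Srsf10-kd 4 (0.0969). Without Ctrl 3 and Srsf10-kd 3 together it was 0.00684, with a log2 fold change of -1.28. No 75-base stretch of Ppara exons occurred in another annotated gene, and no other gene's exons overlapped it.

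The 2 other PPAR genes did not pass the test. Ppard, which codes for the PPAR found in most tissues, stood at 6.49, 6.30, 3.86 and 8.43 CPM in Ctrl and 4.76, 4.92, 4.98 and 5.59 CPM in Srsf10-kd livers (log2 fold change -0.31, SE 0.21, edgeR adjusted p = 0.377). The groups overlapped, since Ctrl 3 was below all Srsf10-kd livers. Pparg, the PPAR that drives fat storage, stood at 14.9, 12.4, 11.2 and 10.2 CPM in Ctrl and 11.3, 12.5, 14.3 and 10.9 CPM in Srsf10-kd livers. The groups lay within the same range, with a log2 fold change of 0.01 (SE 0.14, edgeR adjusted p = 0.963). Intron 2 was the largest intron in these genes too, with 49165 bp in Ppard and 56096 bp in Pparg. Per kilobase of exons, Ppara exceeded Pparg 12.8 ± 3.61-fold in Ctrl and 5.30 ± 0.819-fold in Srsf10-kd livers (SD, n = 4). Ppara exceeded Ppard 64.4 ± 14.7-fold in Ctrl and 32.4 ± 3.35-fold in Srsf10-kd livers.

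Of the RXR genes, whose proteins pair with PPARα and with many other receptors, none passed the edgeR test. Rxra, the main liver form, stood at 511, 510, 313 and 552 CPM in Ctrl and 376, 361, 240 and 373 CPM in Srsf10-kd livers. Liver 3 was the lowest of each group, and Ctrl 3 lay within the Srsf10-kd range, so the groups overlapped. The difference was -0.48 on the log2 scale (SE 0.20), with an adjusted p of 0.211 in edgeR, 0.163 in DESeq2 and 0.0454 in limma-voom with sample weights. Without Ctrl 3 and Srsf10-kd 3 it was -0.50 with an edgeR adjusted p of 0.0195. Rxrb stood at 33.4, 30.3, 29.8 and 32.8 CPM in Ctrl and 29.7, 30.1, 27.1 and 29.9 CPM in Srsf10-kd livers (log2 fold change -0.11, SE 0.09). Rxrg stood at 4.83, 4.66, 5.71 and 4.97 CPM in Ctrl and 6.07, 5.80, 4.24 and 5.27 CPM in Srsf10-kd livers (log2 fold change 0.09, SE 0.14). Both of these overlapped between groups. Rxra exceeded Ppara per kilobase 1.68 ± 0.294-fold in Ctrl and 2.83 ± 0.452-fold in Srsf10-kd livers (SD, n = 4), and every Srsf10-kd liver (2.17 to 3.18) was above every Ctrl liver (1.31 to 2.03).

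Levels of different genes were compared as CPM per kilobase of the union of exons (CPM per kb). In Ctrl livers the order was led by Rxra (86.4 ± 19.7), Nr1i3 (81.5 ± 16.0), Ppara (51.3 ± 7.89), Nr1i2 (46.7 ± 3.26), Nr1h3 (44.1 ± 5.49) and Nr2f6 (31.9 ± 2.64; SD, n = 4). Ranges over livers overlapped between neighbours from Rxra to Nr1h3. Rxra and Nr1i3 held ranks 1 and 2 in every Ctrl liver and were above Nr1i2 and Nr1h3 in range. The order of Rxra against Nr1i3 is not settled, nor is that among Ppara, Nr1i2 and Nr1h3. Nr1h3 was above Nr2f6 in range. With the longest transcript as length, Nr1h3 was above Rxra in Ctrl 3. In Srsf10-kd livers Ppara stood at 21.7 ± 1.16 CPM per kb and held rank 6 in every liver, against rank 3 to 5 in Ctrl livers. The other 5 leading genes in Srsf10-kd livers were Nr1i3 (71.6 ± 14.2), Rxra (61.8 ± 11.9), Nr1h3 (41.9 ± 3.13), Nr1i2 (39.6 ± 1.37) and Nr2f6 (36.9 ± 4.30). These 6 genes made 80.4% of the summed level of the 40 genes in Ctrl and 77.6% in Srsf10-kd livers.

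**Figure D1:**
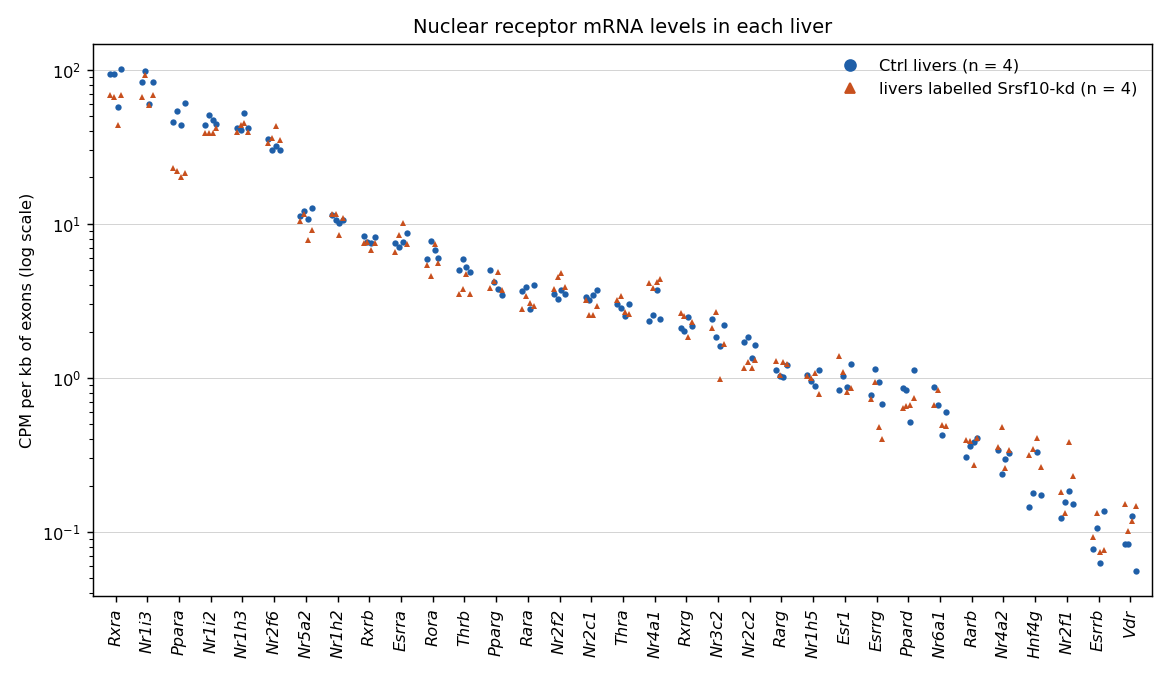
CPM per kb of exons on a log axis for the 33 tested genes, ordered by their mean in Ctrl livers, with 4 Ctrl livers as circles and 4 livers labelled Srsf10-kd as triangles. Ppara is the gene whose groups stand farthest apart among the 6 highest, from 43.7 to 61.0 in Ctrl and from 20.3 to 23.1 in Srsf10-kd livers.

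A second tier followed with Nr5a2 (11.7), Nr1h2 (10.7), Rxrb (7.95), Esrra (7.75), Rora (6.60) and Thrb (5.25 CPM per kb in Ctrl). Nr2f6 was above Nr5a2, Nr1h2 above Rxrb, and Rora above Thrb in range, and the other neighbours overlapped. Pparg (4.12), Rara (3.59), Nr2f2 (3.49), Nr2c1 (3.44), Thra (2.85), Nr4a1 (2.75), Rxrg (2.19), Nr3c2 (2.02) and Nr2c2 (1.64) came next. The remaining 12 tested genes lay between 1.10 (Rarg) and 0.0874 (Vdr). The summed level of the 40 genes was 424 ± 36.2 CPM per kb in Ctrl and 352 ± 22.0 in Srsf10-kd livers (SD, n = 4). Without Ppara it was 373 ± 30.5 and 331 ± 21.5. The share of Ppara in that sum was 10.8%, 12.0%, 11.7% and 13.7% in Ctrl 1 to 4 and 6.61%, 5.78%, 6.17% and 6.13% in Srsf10-kd 1 to 4, with no overlap.

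Among the LXR, FXRβ, PXR, CAR and vitamin D receptor genes, Nr1i2 alone had groups that did not overlap. Nr1i2 (PXR) stood at 112, 130, 121 and 113 CPM in Ctrl and 98.9, 99.1, 99.8 and 106 CPM in Srsf10-kd livers. Every Srsf10-kd liver was below every Ctrl liver, but the log2 fold change of -0.24 (SE 0.10) did not pass edgeR (adjusted p = 0.199) or DESeq2 (adjusted p = 0.0779). Nr1i3 (CAR) stood at 368, 436, 265 and 369 CPM in Ctrl and 294, 406, 260 and 304 CPM in Srsf10-kd livers. Its groups covered the same range (log2 fold change -0.19, SE 0.18), and liver 3 was again the lowest of both. The oxysterol receptor Nr1h3 (LXRα) stood at 105, 102, 132 and 105 CPM in Ctrl and 98.7, 110, 114 and 98.7 CPM in Srsf10-kd livers. Its log2 fold change was -0.07 (SE 0.12), and Ctrl 3 was its highest liver. Nr1h2 (LXRβ), the more widely expressed LXR, ran from 28.4 to 39.1 CPM over all livers (log2 fold change 0.00), and Nr1h5 (FXRβ), a lanosterol receptor in mice, from 2.23 to 3.18 CPM (log2 fold change -0.04). Vdr, the vitamin D receptor, ran from 0.316 to 0.716 CPM in Ctrl and 0.577 to 0.854 CPM in Srsf10-kd livers, with a log2 fold change of 0.58 (SE 0.26) and an adjusted p of 0.236 in edgeR and 0.0454 in limma-voom.

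Of the thyroid hormone receptor genes, Thrb, the main form in liver, had groups that did not overlap. It stood at 37.0, 43.6, 38.7 and 36.1 CPM in Ctrl and 25.9, 28.0, 35.0 and 26.0 CPM in Srsf10-kd livers. All Srsf10-kd livers were below all Ctrl livers, and Srsf10-kd 3 came within 1.14 CPM of Ctrl 4. On the log2 scale the difference was -0.44 (SE 0.12), with an adjusted p of 0.130 in edgeR, 0.0251 in DESeq2 and 0.00816 in limma-voom. It was -0.55 without Ctrl 3 and Srsf10-kd 3, with an edgeR adjusted p of 0.0183. Thra, the form of heart and brain, ran from 11.6 to 15.6 CPM over all livers with a log2 fold change of 0.06 (SE 0.12). Its exons overlap those of Nr1d1 on the opposite strand, and the strand setting of the counting is not given in the sources used here. Thrb exceeded Thra per kilobase 1.86 ± 0.254-fold in Ctrl and 1.33 ± 0.309-fold in Srsf10-kd livers (SD, n = 4), and these ranges overlapped.

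The retinoic acid receptor genes did not pass any of the 3 tests. Rara ran from 12.3 to 17.4 CPM in Ctrl and 12.3 to 14.9 CPM in Srsf10-kd livers (log2 fold change -0.23, SE 0.13, edgeR adjusted p = 0.307). Rarb ran from 1.44 to 2.14 CPM over all livers (log2 fold change 0.01) and Rarg from 4.32 to 5.49 CPM (log2 fold change 0.14). The orphan receptor Rora, which binds clock gene promoters, ran from 77.1 to 101 CPM in Ctrl and 59.7 to 96.9 CPM in Srsf10-kd livers (log2 fold change -0.20, SE 0.16), and Rorb, a form of retina and brain, had 0 or 1 count in each liver.

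**Figure D2:**
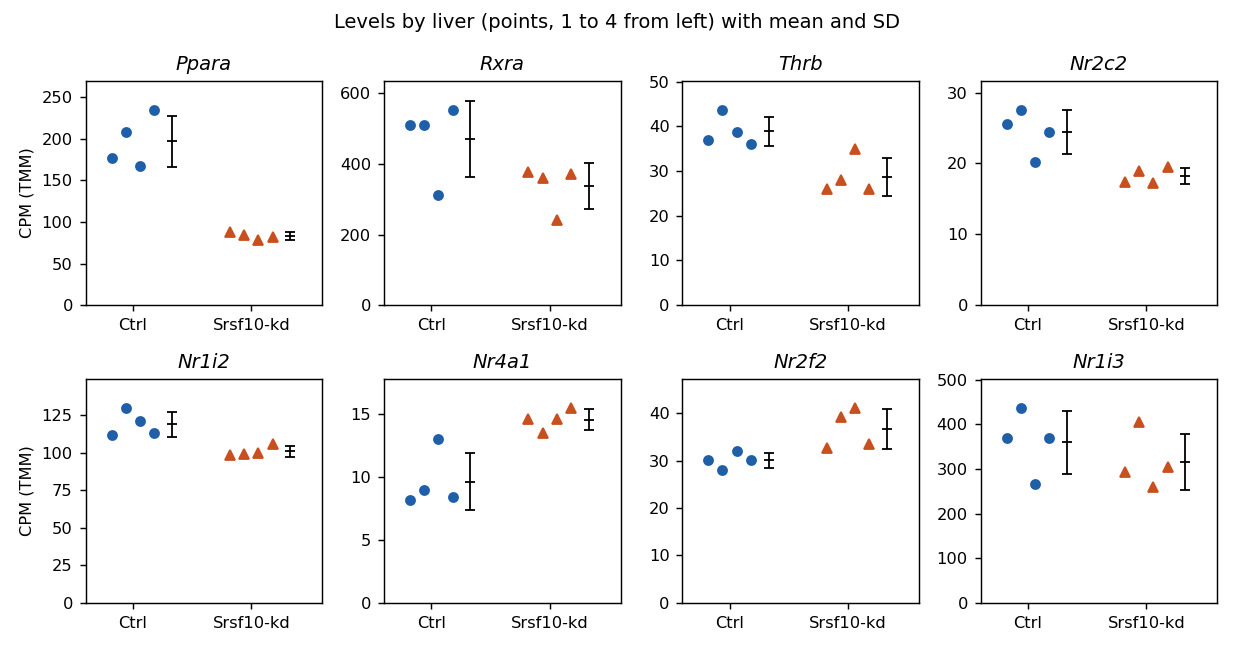
CPM of 8 receptor genes in each liver, from 0, with Ctrl 1 to 4 as circles and Srsf10-kd 1 to 4 as triangles from left to right, and the mean and SD of each group (n = 4) beside them. Ppara, Thrb, Nr2c2, Nr1i2, Nr4a1 and Nr2f2 do not overlap between groups, and Rxra and Nr1i3 do.

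Among the orphan receptors of the NR2 class, Nr2c2 (TR4) was lower and Nr2f2 (COUP-TFII) higher in all Srsf10-kd livers, and neither passed edgeR. Nr2c2 stood at 25.6, 27.5, 20.2 and 24.4 CPM in Ctrl and 17.4, 18.9, 17.3 and 19.5 CPM in Srsf10-kd livers. The groups did not overlap, and Ctrl 3 came nearest to the Srsf10-kd livers. The log2 fold change was -0.42 (SE 0.11), with an adjusted p of 0.127 in edgeR, 0.0333 in DESeq2 and 0.0123 in limma-voom. In edgeR it passed without Ctrl 3 (adjusted p = 0.0361). Of the 75-base stretches of Nr2c2 exons, 3.51% also occurred in another gene. Its partner Nr2c1 (TR2) ran from 14.7 to 17.1 CPM in Ctrl and 11.8 to 14.8 CPM in Srsf10-kd livers (log2 fold change -0.29, SE 0.11, edgeR adjusted p = 0.189), and the groups just met.

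Nr2f2, a factor of venous endothelial and other non-parenchymal cells, stood at 30.1, 28.0, 31.9 and 30.2 CPM in Ctrl and 32.7, 39.2, 41.1 and 33.5 CPM in Srsf10-kd livers. All Srsf10-kd livers were above all Ctrl livers (log2 fold change 0.29, SE 0.11, adjusted p = 0.180 in edgeR and 0.130 in DESeq2). Nr2f1 (COUP-TFI) ran from 0.625 to 0.935 CPM in Ctrl and 0.673 to 1.95 CPM in Srsf10-kd livers, the highest being Srsf10-kd 3 (log2 fold change 0.59, SE 0.31). Nr2f6 (EAR2) ran from 89.4 to 106 CPM in Ctrl and 99.5 to 129 CPM in Srsf10-kd livers (log2 fold change 0.21, SE 0.12, edgeR adjusted p = 0.291). Hnf4g, a fatty-acid-binding receptor of the gut, ran from 0.382 to 0.875 CPM in Ctrl and 0.695 to 1.07 CPM in Srsf10-kd livers. Its log2 fold change was 0.69 (SE 0.28), with an adjusted p of 0.201 in edgeR and 0.0368 in limma-voom, and it passed edgeR without Ctrl 3 (0.99, adjusted p = 0.0480). Nr2e3, of photoreceptors, had 0 to 2 counts in each liver.

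The NR4A genes are immediate early genes, whose products act without a known ligand, and Nr4a1 (NUR77) was higher in all Srsf10-kd livers. It stood at 8.18, 8.95, 13.0 and 8.43 CPM in Ctrl and 14.6, 13.5, 14.6 and 15.5 CPM in Srsf10-kd livers. The groups did not overlap, though Ctrl 3 came within 0.483 CPM of Srsf10-kd 2. Its log2 fold change was 0.60 (SE 0.15), with an adjusted p of 0.119 in edgeR, 0.0198 in DESeq2 and 0.00727 in limma-voom. In edgeR it passed without Ctrl 3 (0.77, adjusted p = 0.0190). Nr4a2 (NURR1) ran from 0.965 to 1.37 CPM in Ctrl and 1.05 to 1.94 CPM in Srsf10-kd livers (log2 fold change 0.26, SE 0.21). Nr4a3 (NOR1) was not tested, with 5, 8, 6 and 2 counts in Ctrl and 5, 32, 10 and 12 counts in Srsf10-kd livers, the highest being Srsf10-kd 2. DESeq2, which kept it, gave an adjusted p of 0.143.

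The summed level of bile duct cell markers, most of it Spp1, was higher in all Srsf10-kd livers. The 5 cholangiocyte markers summed to 31.4 to 39.1 CPM in Ctrl and 46.5 to 68.6 CPM in Srsf10-kd livers, with no overlap. Spp1 alone had a mean of 21.4 CPM in Ctrl and 32.3 CPM in Srsf10-kd livers, and Krt7, Epcam and Sox9 overlapped between groups. Of the 5, 0 passed edgeR after adjustment. An unadjusted p under 0.05 in edgeR was found for 3 (Krt19, Epcam and Spp1), or 60%, against 21.8% of all genes. DESeq2 and limma-voom each called 1, Krt19, or 20%, against 5.21% and 11.7% of all genes. The summed levels of the other lists overlapped between groups. They ran from 228 to 270 CPM in Ctrl and 210 to 246 CPM in Srsf10-kd livers for sinusoidal endothelial cells (7 markers), 191 to 213 and 171 to 292 CPM for stellate cells (7), 199 to 285 and 157 to 277 CPM for Kupffer cells and macrophages (7), and 2.55 to 4.26 and 2.69 to 4.19 CPM for lymphocytes (7). The sum for sinusoidal endothelial cells joins markers of opposite sign, since by unadjusted p under 0.05 in edgeR 2 were higher and 2 lower. The higher ones were Lyve1 (log2 fold change 0.57, SE 0.17, no overlap) and Pecam1 (0.30, SE 0.11), and the lower ones Oit3 (-0.26, SE 0.11, no overlap) and Stab2 (-0.57, SE 0.23). None of these 4 passed edgeR or DESeq2 after adjustment, and limma-voom called Lyve1, Pecam1 and Stab2. The part of these cells in the receptor values was not tested.

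The steroid receptor genes and the estrogen-related receptor genes did not pass any of the 3 tests. Nr3c2, the mineralocorticoid receptor, ran from 10.4 to 15.6 CPM in Ctrl and 6.34 to 17.2 CPM in Srsf10-kd livers (log2 fold change -0.12, SE 0.27). Esr1, the main estrogen receptor of liver, ran from 11.0 to 19.0 CPM over all livers (log2 fold change 0.06, SE 0.19). Esr2, the other estrogen receptor, had 0 to 5 counts, and Pgr, the progesterone receptor, 0 or 1 count in each liver, and neither was tested. Esrra, a partner of PGC-1 coactivators in mitochondrial gene expression, ran from 31.2 to 38.3 CPM in Ctrl and 28.6 to 44.3 CPM in Srsf10-kd livers (log2 fold change 0.07, SE 0.14). Esrrg, its relative in oxidative tissues, ran from 4.20 to 7.08 CPM in Ctrl and 2.49 to 5.86 CPM in Srsf10-kd livers (log2 fold change -0.47, SE 0.27, edgeR adjusted p = 0.320), and Esrrb, known from stem cells, from 0.378 to 0.825 CPM over all livers (log2 fold change -0.03).

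Nr5a2 (LRH-1), which drives bile acid synthesis genes in hepatocytes, ran from 63.2 to 75.3 CPM in Ctrl and 46.5 to 68.1 CPM in Srsf10-kd livers (log2 fold change -0.27, SE 0.13, edgeR adjusted p = 0.254). Nr6a1 (GCNF), of germ cells, ran from 4.62 to 9.41 CPM over all livers (log2 fold change -0.05). Nr5a1 (SF-1), of steroid-producing glands, had 0 to 2 counts in each liver. Nr0b1 (DAX-1), which lacks the usual DNA-binding domain, had 0 counts in all 8 livers, and a count of 0 allows up to 3 counts, or 0.0595 CPM in the smallest library.

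Read over the list, the count of receptor genes called depended on the test, and so did the share of all genes. In edgeR, 1 of 33 was called, Ppara, against 0.071% of all genes tested. In DESeq2, 4 of the 34 with an adjusted p were called, Ppara, Thrb, Nr2c2 and Nr4a1 (11.8%), against 5.21% of all genes. In limma-voom with sample weights, 7 of 33 were called (21.2%), the same 4 with Rxra, Hnf4g and Vdr, against 11.7% of all genes. Without Ctrl 3 and Srsf10-kd 3, edgeR called 6 of 33, Ppara, Rxra, Thrb, Nr2c2, Nr4a1 and Hnf4g, against 1342 of all 15560 genes tested in that fit. Without Ctrl 3 alone, it called 4 of 34, Ppara, Nr2c2, Nr4a1 and Hnf4g, against 544 of all 15682 genes tested. Exons of Rarb, Nr1i3, Rora, Nr2c2, Nr2f1, Nr2f2, Nr2f6, Nr3c2, Esrra and Thra overlap those of an annotated gene on the opposite strand, and exons of Nr1h3, Nr2e3 and Esrra those of a gene on their own strand, so reads of the partner genes may be in or missing from their counts.

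By unadjusted p under 0.05 in edgeR, 6 of the 33 genes were lower (18.2%, against 10.6% of all genes) and 3 were higher (9.09%, against 11.2% of all genes). The lower genes were Ppara, Rxra, Thrb, Nr2c1, Nr2c2 and Nr1i2, and the higher genes were Nr4a1, Nr2f2 and Hnf4g. Groups did not overlap in 4 lower genes (Ppara, Thrb, Nr2c2 and Nr1i2), or 12.1%, against 7.53% of all genes tested. They did not overlap in 2 higher genes (Nr4a1 and Nr2f2), or 6.06%, against 6.73% of all genes. Of the 33 genes, 19 were lower and 14 higher, and the median log2 fold change was -0.04, against 0.01 over all genes, of which 48.7% were lower.

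**Figure D3:**
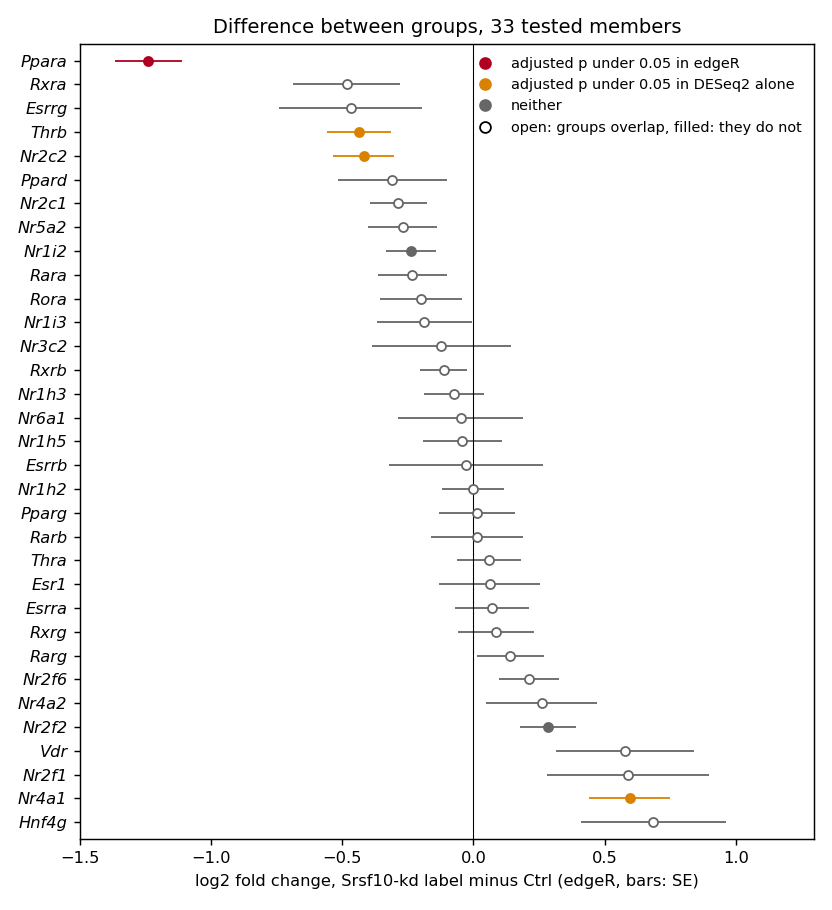
The log2 fold change of each of the 33 tested genes, Srsf10-kd label minus Ctrl, with its SE from edgeR and coloured by test, open circles marking genes whose groups overlap. Ppara, at -1.24, lies apart from the other 32, which run from -0.48 (Rxra) to 0.69 (Hnf4g).

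Transcript length went with the fold changes of genes at large, and the receptor transcripts were long. The median length of the union of exons was 4607 bp in the 40 genes and 3943 bp in all tested genes with a length. Tested genes were split by length into 3 classes of like size. The median log2 fold change was 0.24 in the short class (up to 2820 bp), 0.00 in the middle class and -0.18 in the long class (over 5389 bp). Of the 33 receptor genes, 13 were in the long class, 10 of them lower, and their median was -0.20. The middle class held 16 with a median of 0.01, and the short class 4 with a median of 0.01.

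With each library's trend of counts on length removed, the genes parted. Ppara, with 3836 bp, kept its log2 fold change (-1.25, edgeR adjusted p = 0.0162). It was the 1 receptor gene called in this fit. Nr4a1, with 3509 bp, was at 0.57 (edgeR adjusted p = 0.172), and Rxra, with 5462 bp, at -0.40 (0.302). Thrb, with 7403 bp, came to -0.28 (edgeR adjusted p = 0.354), Nr2c2, with 14935 bp, to -0.14 (0.478), and Rora, with 13071 bp, from -0.20 to 0.06. Nr2f2, with 8625 bp, went from 0.29 to 0.47 (edgeR adjusted p = 0.180), and Nr1i2, with 2553 bp, from -0.24 to -0.35 (0.180). The slope of the libraries on length was 0.0769, 0.0836, -0.0274 and 0.113 in Ctrl 1 to 4 and -0.0215, -0.0210, -0.150 and -0.0540 in Srsf10-kd 1 to 4, in log2 units per doubling of length, so that Ctrl 3 lay with the Srsf10-kd livers. The part of RNA quality in these slopes was not tested.

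Large introns were common in the list. Of the 33 tested genes, 13 had a largest intron at least as long as that of Ppara in their longest coding transcript, as had 9.40% of all tested genes with a length. Of these 13, 10 were lower, and their median was -0.20 (log2), against -0.13 for all such genes. Ppara, Rxra, Nr2c2, Ppard, Esrrg, Nr5a2, Rora and 6 others belong to it, and 3 of the 6 lower genes with an unadjusted p under 0.05 (Thrb, Nr2c1 and Nr1i2) do not. The other 20 genes had a median of 0.07, against 0.03 for all genes with smaller introns, and 9 of them were lower.

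Genes known as targets of these receptors were taken from lists written from textbook knowledge, and none of their 67 genes passed edgeR. An unadjusted p under 0.05 in edgeR was found for 3 of them, Hadha included (4.48%, against 21.8% of all genes). DESeq2 called 1 (1.49%, against 5.21%) and limma-voom 2, Abca1 included (2.99%, against 11.7%). Of 24 PPARα targets, 19 were lower and 5 higher in the main edgeR fit. Their median there was -0.20 on the log2 scale, against 0.01 over all genes tested. This split and median belong to the main fit, and the directions were not steady over fits. With limma-voom, and in edgeR without Srsf10-kd 3, the 24 targets were divided about evenly between lower and higher. Ehhadh went from -0.51 to 0.11 with limma-voom. Plin2 went from -0.16 to 0.097 with limma-voom and to 0.055 in edgeR without Srsf10-kd 3. Other targets stayed lower in both fits, such as Hadha at -0.24 and -0.31. Hadha, the α subunit of the mitochondrial trifunctional protein of fatty acid oxidation, was the one PPARα target whose groups did not overlap. It stood at 646, 663, 794 and 817 CPM in Ctrl and 632, 512, 322 and 617 CPM in Srsf10-kd livers (log2 fold change -0.49, SE 0.20, edgeR adjusted p = 0.210), Srsf10-kd 3 being the lowest. Fabp1, the liver fatty acid binding protein and the target with the highest CPM, had a log2 fold change of 0.16 (SE 0.19). Beside the -1.24 of Ppara, the fatty acid oxidation targets Cpt1a (-0.66, SE 0.30, edgeR adjusted p = 0.237) and Cyp4a14 (-0.44, SE 0.38, edgeR adjusted p = 0.488) had log2 fold changes that did not pass. Cyp4a14 was at -0.04 with limma-voom and -0.19 in edgeR without Srsf10-kd 3. Other oxidation targets lay near 0, such as Hadhb (-0.09, SE 0.17), the partner subunit of Hadha, Cpt2 (-0.09, SE 0.11), Acadm (0.09, SE 0.12) and Acadl (0.04, SE 0.12). Apart from Hadha and Fabp1, the PPARα targets named here were picked after their values were seen.

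In the main edgeR fit, the lists of the other receptors had medians nearer to 0. That of the LRH-1 targets, at -0.18, was close to the -0.20 of PPARα, which rests on this fit. Of 10 LXR targets 7 were lower (median -0.06), and Scd1, the desaturase with the highest CPM of them, was at 0.80 (SE 0.46). Of 9 PXR and CAR targets 3 were lower (median 0.01). Alas1, the first enzyme of haem synthesis, was at 0.01, and Ugt1a1, which conjugates bilirubin, did not overlap, with 217, 279, 222 and 224 CPM in Ctrl and 151, 208, 32.2 and 156 CPM in Srsf10-kd livers (log2 fold change -0.78, SE 0.43, edgeR adjusted p = 0.292). Srsf10-kd 3 was far below its group in Ugt1a1. Of 5 thyroid hormone receptor targets 1 was lower (median 0.07), with Dio1, the deiodinase that makes active hormone, at 0.24.

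Of 5 retinoic acid receptor targets 2 were lower (median 0.17), and Dhrs3, a retinal reductase, was at 0.17. Of 5 ROR targets 4 were lower (median -0.12, Elovl3, a fatty acid elongase, at -0.22), and of 3 LRH-1 targets all 3 were lower (median -0.18, Cyp8b1, a bile acid hydroxylase, at -0.49). Of 6 ERR targets 3 were lower (median 0.01, the ATP synthase subunit gene Atp5b at -0.04).

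**Figure D4:**
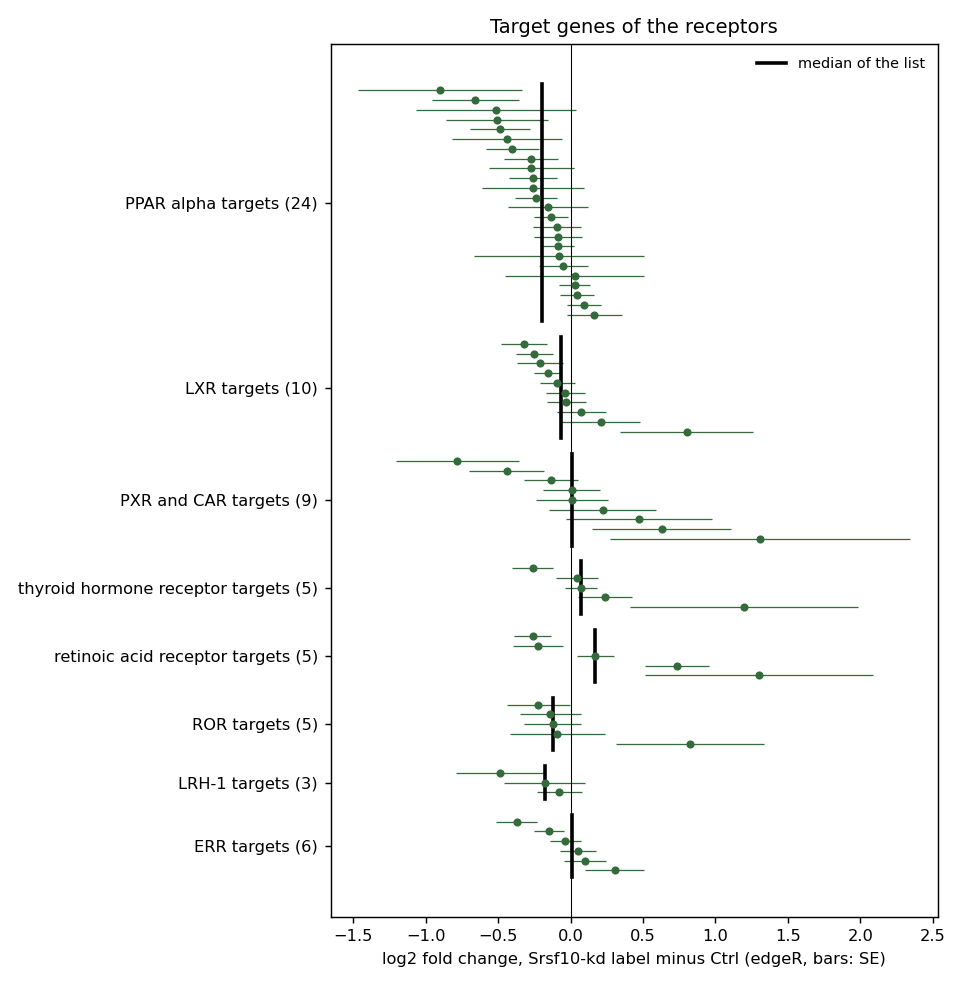
The log2 fold change of each target gene, Srsf10-kd label minus Ctrl, with its SE from edgeR, grouped by receptor with the number of genes in parentheses and a black line at each list's median. The medians in this main fit run from -0.20 (PPARα) to 0.17 (retinoic acid receptors), and no gene passed edgeR's adjusted test.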

How the data were processed

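The authors made poly(A) libraries, aligned reads to GRCm38 with STAR 2.7.7a (submitters' processing notes) and deposited raw counts per gene, with no normalization. The annotation release and the strand setting are not given in the sources used here. Each of the 8 columns was matched to a liver by its label, and no 2 columns agreed within sampling noise (chi-square over degrees of freedom at least 51.0 in 28 pairs). Nothing says more than that each library is a separate sample, so p-values measure the spread between these livers.

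Counts were tested in R 4.3.3 with edgeR 4.0.16 (TMM, filterByExpr, quasi-likelihood test, two-sided, condition alone), and p was adjusted by Benjamini-Hochberg over all 15491 genes at 0.05. Fold changes are Srsf10-kd minus Ctrl. DESeq2 1.42.0, the study's tool, and limma 3.58.1 voom with sample quality weights were alternatives, as were the scalings, filters, replicate block, length correction (lowess, span 0.5) and each liver left out. Leaving out liver 3 of both groups, and correcting by the longest transcript, were chosen after seeing the data. Exact permutation tests used all 70 assignments. Positions and lengths came from GENCODE for GRCm38, and 45143 of 45706 identifiers matched. CPM used TMM-scaled library sizes. Scripts were tested on simulated data with 200 changed genes. There edgeR recovered 195 with 17 false calls, DESeq2 198 with 51 false calls and limma-voom 192 with 14 false calls. The simulated log2 fold change was 1.5, in genes not low in counts, and no length trend was put in. It was larger than that of any receptor gene in the main fit, so recovery of smaller changes was not tested. The genes, the target and marker lists, and the length correction were chosen with earlier results of these data known. All 40 genes are named, and all 8 values are given for PPAR and RXR genes, genes called in edgeR or DESeq2, genes without overlap and the 5 highest per length. Of each target list, the genes called or without overlap and that with the highest CPM are named. The values of some target genes are not reported here.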

Additional observations from a re-analysis of the deposited data

Results flagged for a closer look

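Of 66 groups of 4 livers examined over the 33 tested genes, 6 had a liver far from the other 3 of its group, where chance gives about 3.30. Srsf10-kd 3 was the low liver in 3 of them. It stood at 240 CPM for Rxra (others 361 to 376), 27.1 CPM for Rxrb (29.7 to 30.1) and 1.44 CPM for Rarb (2.06 to 2.14). Ctrl 3 was the high liver for Nr1h3, at 132 CPM (others 102 to 105), and for Nr4a1, at 13.0 CPM (8.18 to 8.95). Srsf10-kd 4 was the high liver for Nr1i2, at 106 CPM (98.9 to 99.8), and stayed below every Ctrl liver.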

How the results depend on the processing

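Ppara was lower under all 18 alternatives run. Its adjusted p stayed under 0.05 except without 1 of 4 livers, where the log2 fold change was -1.21 (Ctrl 2), -1.27 (Srsf10-kd 1), -1.25 (Srsf10-kd 2) and -1.23 (Srsf10-kd 4), and over all 8 such fits it ran from -1.31 to -1.15. Genes called over the whole table, 11 in the reported fit, came to 819 with DESeq2, 1814 with limma-voom, 46 with no filter, 7 with the length trend removed, 6 with the longest transcript as length, 1342 without liver 3 of both groups, and 0 to 544 with 1 liver left out. Where that count was 0, 2154 to 3656 genes had an unadjusted p under 0.05 in edgeR. Receptor genes called, 1 in the reported fit, came to 4, 7, 1, 1, 1, 6 and 0 to 4 in the same order. Receptor genes with an unadjusted p under 0.05, 9 in the reported fit, came to 14 with limma-voom and 6 to 13 in the other fits. Such genes over the whole table came to 3382 in the reported fit and 4871 with limma-voom. The cause was not tested. Same-numbered livers correlated at -0.18, 0.21, 0.27 and 0.22, and the best-matched Ctrl liver for replicates 1 to 4 was Ctrl 2, 2, 3 and 1. Whether replicate numbers pair the livers was not tested. The fit with the replicate number as a block called 59 genes, with Ppara the receptor gene among them at -1.23 (adjusted p = 0.0268).

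Genes near 0 changed sign, none of them called. Pparg was at -0.00032 with DESeq2, -0.14 with limma-voom, -0.065 with the length trend removed, -0.10 with the longest transcript, -0.11 without liver 3 of both groups and -0.069 to 0.12 with 1 liver left out. With the length trend removed, Rxrg was at -0.037, Rora at 0.063, Esrrb at 0.082 and Nr6a1 at 0.18, and with the longest transcript Rxrg was at -0.011, Thra at -0.0031, Rora at 0.14, Nr3c2 at 0.067, Esrrb at 0.078 and Nr6a1 at 0.18. Nr1h2 was at 0.046 with limma-voom, 0.00083 with a minimum of 10 counts per liver and 0.068 without liver 3 of both groups, and Esrra at -0.023 with limma-voom and -0.057 without liver 3 of both groups. With 1 liver left out, Rarb ran from -0.062 to 0.13, Thra from -0.0098 to 0.12, Nr1h2 from -0.049 to 0.093, Nr1h3 from -0.12 to 0.016, Nr1h5 from -0.10 to 0.047, Nr3c2 from -0.35 to 0.087, Esr1 from -0.11 to 0.18, Esrra from -0.049 to 0.16, Esrrb from -0.24 to 0.19 and Nr6a1 from -0.22 to 0.13. With the longest transcript in place of the union of exons, Nr1i3 led Rxra in Ctrl livers (121 and 96.2 CPM per kb), and Ppara kept rank 3 in Ctrl and rank 6 in Srsf10-kd means. Depth limits the 7 genes not tested, whose highest count in a liver was 32.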
